A study of Mus musculus with 14 samples.

Results

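Solute carriers are membrane proteins that move small molecules such as amino acids, sugars, metals, nucleosides and ions across the plasma membrane and the membranes of organelles. The group described here is every measured gene whose single symbol in the array annotation starts with Slc and a family number, without Slc4a1, Slc4a2 and Slc25a37. The rule used no measured value. It found 89 genes in 39 families among 6286 tested genes with a single symbol and 13045 tested features, and all 89 could be tested. The members were ordered by the class of their family number. A member whose own substrate or organelle differs from its family's therefore stays with the family.

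The arrays carried spleen RNA of AcB55 mice (6 arrays) or AcB61 mice (8 arrays), with A/J spleen RNA as the second channel of every array, in a series titled for resistance to malaria. Both strains belong to a recombinant congenic panel, in which segments of the C57BL/6J genome lie on an A/J background. As background that the labels do not give, both carry a loss-of-function allele of the pyruvate kinase gene Pklr, with hemolysis and a raised output of young red cells. The labels give no age, sex, infection or treatment for any animal, and do not say whether arrays of a strain share an animal or a pool of RNA. The p-values therefore measure only how far the arrays scatter, and that scatter may be technical. Each value is a log2 ratio of the strain over A/J, so 0 means equal signal, 1 means double the A/J signal and negative values mean a lower signal than A/J. Reading the ratio as strain over A/J rests on the order of the channels in the labels, which makes the direction likely rather than settled. With the sign turned every rise below would be a fall: Slc50a1 would be the largest rise at 0.87 (AcB55) and Slc25a39 the largest fall at -0.79 (AcB61). The arrays are called replicate 1 to 6 and replicate 1 to 8 in the order of deposit, which pairs nothing.

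Solute carriers matter in the spleen because red cell precursors, which the mouse spleen produces under anemia, need glutamine and glycine, iron, heme precursors and nucleosides in bulk. Spleen macrophages take up old red cells, move heme out of the phagolysosome and return iron through the exporter ferroportin. Mitochondrial carriers supply the organelle in which heme synthesis starts and ends.

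The arrays held 14197 to 14588 values each, with medians between -0.0205 and 0.00867. Correlations over all features had a median of 0.546 within AcB55 (0.403 to 0.748) and of 0.449 within AcB61 (-0.0894 to 0.833). AcB61 replicates 2, 6 and 8 correlated with each other at 0.788 to 0.833 and replicates 3, 5 and 7 at 0.704 to 0.795, but the median between these sets was 0.0642. Markers of red cell precursors were higher than A/J for 8 of 11 tested genes in AcB55 and 9 of 11 in AcB61, with array means of 0.30 to 0.69 and 0.50 to 0.77; Ermap was lower in AcB55 at -0.24 (limma adjusted p = 0.00572). Cycling cell genes were higher for 20 and 21 of 24, with array means of 0.50 to 0.86 and 0.40 to 0.76. Macrophage genes were lower for 6 and 3 of 8 and higher for 1 in each strain, Ctsb at 0.44 and 0.34 (adjusted p of 0.00197 and 0.00453). B cell genes were lower for 2 and 2 of 2. Genes of stroma, vessels and fat were lower for 7 and 5 of 9, while Col3a1 was higher in AcB61 at 0.43 (adjusted p = 1.22e-06). Granulocyte genes were higher for 1 and 2 of 4, with array means of -0.04 to 1.31 in AcB55, where replicates 1 and 2 were highest, and of 0.27 to 0.75 in AcB61, where Hdc was lower at -0.29 (adjusted p = 0.00119). AcB55 replicates 1 and 2 were also highest in red cell precursor genes (0.69 and 0.64, others 0.30 to 0.46) and cycling cell genes (0.86 and 0.81, others 0.50 to 0.66). The T and NK cell list had 1 tested gene, which was lower in AcB55 and did not pass in AcB61, and the platelet list 2, both lower in AcB61. The exocrine pancreas list had 1, Cpa1, past the threshold in neither strain, but its AcB55 arrays lay far apart. It read 2.37 on AcB55 replicate 1 and -2.05, -1.19, -2.65 and -3.58 on replicates 3, 4, 5 and 6, with no value on replicate 2. On the AcB61 arrays it ran from -0.89 to 0.48. Beside these counts, 9.77% of all features were higher and 10.9% lower in AcB55, and 10.5% and 13.3% in AcB61. A ratio holds no level, so whether any marker was at 0, and whether the tissue was pure spleen, was not tested. More cells of a type and more RNA per cell cannot be told apart in whole spleen, and the part that these marker shifts have in the values below was not tested.

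Most carriers lay close to A/J, as did most features, and a minority passed the threshold in each strain. In AcB55, 13 of the 89 carriers were higher than A/J and 9 were lower at an adjusted p below 0.05 (limma, Benjamini-Hochberg over all features), and 67 did not pass. The shares were 14.6% and 10.1%, beside 9.77% and 10.9% of all features and 11.2% and 15.5% of the genes with a single symbol. In AcB61, 8 carriers were higher and 5 were lower, which is 8.99% and 5.62%, beside 10.5% and 13.3% of all features and 13.3% and 8.8% of single-symbol genes. Counting both directions, the carriers' shares were 24.7% in AcB55, between 20.7% of features and 26.7% of genes, and 14.6% in AcB61, below 23.8% and 22.1%. The share in AcB55 lies within the background and is therefore not a result about the carriers. The median carrier was at 0.01 in AcB55 and 0.00 in AcB61, beside 0.00 and 0.00 over all features, and the median distance from 0 was 0.09 and 0.05, beside 0.09 and 0.08. In all, 46 carriers had a mean within 0.1 of 0 in both strains, 65 passed the threshold in no comparison, and 5 were at least 1.5-fold from A/J in a strain: Slc7a6, Slc38a5, Slc38a9, Slc25a39 and Slc50a1. The same counts were not made over all features, so they do not set the carriers apart from other genes.

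**Figure D1:**
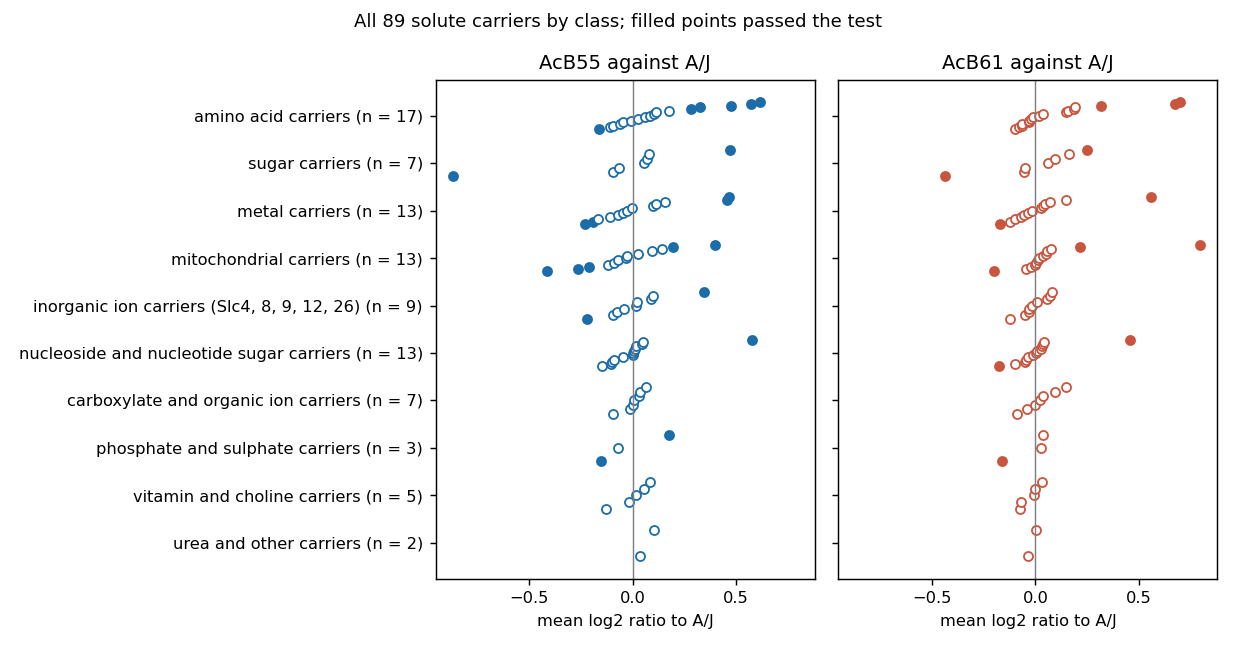
Mean log2 ratio to A/J (x axis) of each of the 89 carriers by substrate class (y axis), in AcB55 (left, 6 arrays) and AcB61 (right, 8 arrays), where filled points passed an adjusted p of 0.05. The amino acid carriers reach furthest to the right in AcB55, Slc25a39 does so in AcB61 at 0.79, and the sugar carrier Slc50a1 is the lowest point of both panels at -0.87 and -0.43.

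The sequences below are the 250 bases before the start of the 3 carriers with the largest mean rise in AcB61 and of the carrier with the largest fall in both strains, picked after their values were seen. They are the RefSeq promoter windows of build GRCm38.p6, read 5′ to 3′ on the gene's strand: Slc25a39 at chr11:102407518-102407767 (minus), Slc38a5 at chrX:8271131-8271380 (plus), Slc38a9 at chr13:112660516-112660765 (plus) and Slc50a1 at chr3:89270571-89270820 (minus). Capitals mark matches on either strand to 4 kinds of motif: the GATA type (AGATAA or TGATAA or AGATAG or TGATAG), the CACCC type CCNCNCCC, the E-box CACGTG and the ATF4 type TGATGNAA. Overlapping matches run together.
Slc25a39: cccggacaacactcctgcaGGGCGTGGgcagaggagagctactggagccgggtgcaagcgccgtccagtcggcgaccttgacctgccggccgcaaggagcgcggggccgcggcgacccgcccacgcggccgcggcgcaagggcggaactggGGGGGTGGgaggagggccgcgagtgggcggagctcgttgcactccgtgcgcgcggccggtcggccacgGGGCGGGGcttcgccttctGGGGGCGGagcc
Slc38a5: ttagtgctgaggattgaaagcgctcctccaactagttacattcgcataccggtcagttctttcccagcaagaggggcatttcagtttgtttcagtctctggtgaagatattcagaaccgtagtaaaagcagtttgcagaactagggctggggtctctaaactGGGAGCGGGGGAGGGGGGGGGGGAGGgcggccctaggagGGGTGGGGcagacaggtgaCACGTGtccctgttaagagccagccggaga
Slc38a9: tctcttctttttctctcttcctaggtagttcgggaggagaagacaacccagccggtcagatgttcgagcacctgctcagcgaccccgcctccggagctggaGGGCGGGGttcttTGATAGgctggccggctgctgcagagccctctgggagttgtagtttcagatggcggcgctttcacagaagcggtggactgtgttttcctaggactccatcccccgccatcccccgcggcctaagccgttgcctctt
Slc50a1: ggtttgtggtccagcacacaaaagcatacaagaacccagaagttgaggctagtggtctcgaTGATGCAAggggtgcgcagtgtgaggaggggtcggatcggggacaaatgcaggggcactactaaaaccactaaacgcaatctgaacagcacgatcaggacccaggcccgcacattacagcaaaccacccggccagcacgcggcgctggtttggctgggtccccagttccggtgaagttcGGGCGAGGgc

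The 4 windows have a GC content of 77.2%, 55.2%, 60% and 58.4% in that order. Slc25a39 holds 4 CACCC-type matches, and Slc38a5 holds 9 of them, mostly overlapping in 1 run of G, with an E-box 25 bases before the start. Slc38a9 holds 1 GATA-type match 131 bases before the start, 1 of the CACCC type close to it, and Slc50a1 holds 1 ATF4-type match 182 bases and 1 CACCC-type match 3 bases before the start. A CACCC-type match stood in 45.9% of all 32851 windows and in 70.8% of the 96 windows of 69 carriers, while 20 carriers had no window in the table. A GATA-type match stood in 26.5% and 19.8%, an E-box in 6.02% and 13.5%, and an ATF4-type match in 3.45% and 5.21%. The CACCC type stood in 88.9% of 18 windows of carriers only higher and in 87.5% of 8 windows of carriers only lower. For carriers past the threshold in neither strain it stood in 64.7% of 68 windows. The shares count windows, of which 16 carriers have more than 1, and differences between them were not tested. These matches are descriptions of the letters and say nothing of binding.

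Amino acid carriers are the class with the most members here. Of 17 members, 5 were higher and 1 was lower in AcB55 (29.4% and 5.88%, beside 9.77% and 10.9% of all features). In AcB61, 3 were higher and 0 lower (17.6% and 0%, beside 10.5% and 13.3%). The class medians were 0.08 and 0.02, and whether the class differs from all features was not tested. Slc38a5 exchanges glutamine, asparagine and glycine for protons and is known from red cell precursors. Its values ran from 0.31 through a median of 0.45 to 0.96 on the AcB55 arrays and from 0.31 through 0.59 to 1.16 on the AcB61 arrays. All 14 arrays were above 0 and the strains overlapped throughout. The means were 0.57 ± 0.26 (SD, n = 6) and 0.67 ± 0.31 (SD, n = 8), which is 1.48-fold and 1.59-fold above A/J, with limma adjusted p of 6.58e-04 and 4.71e-05. The strains' difference was 0.10 with a 95% interval of -0.19 to 0.39 (adjusted p = 0.682), which does not show that they are alike.

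Slc38a9, a lysosomal member of the same family that senses arginine for the growth kinase complex mTORC1, rose in AcB61. Its values were -0.03, 0.02 and 0.35 (lowest, median and highest) on the AcB55 arrays and 0.31, 0.70 and 1.17 on the AcB61 arrays. Every AcB61 array was above 0, and the ranges met only where the highest AcB55 array passed the lowest AcB61 arrays. The mean was 0.70 ± 0.31 (SD, n = 8) in AcB61, 1.62-fold above A/J (limma adjusted p = 1.33e-05), against 0.10 ± 0.16 (SD, n = 6) in AcB55 (adjusted p = 0.532). The difference of 0.60 (SE 0.13) passed its own test at an adjusted p of 0.0064. The other Slc38 carriers measured, Slc38a1, Slc38a2 and Slc38a4, lay between -0.10 and 0.04 in both strains. Of the probes for Slc38a1, one was at -0.29 in AcB55 (adjusted p = 0.0035) and the other at 0.10, so their mean of -0.09 hides a disagreement.

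Slc7a6, the light chain of an exchanger of cationic against neutral amino acids, rose in AcB55. The lowest, median and highest array were 0.30, 0.69 and 0.86 in AcB55 and -0.41, 0.03 and 0.21 in AcB61. All AcB55 arrays lay above every AcB61 array. The means were 0.62 ± 0.24 (SD, n = 6), 1.53-fold above A/J (limma adjusted p = 5.40e-05), and -0.03 ± 0.22 (SD, n = 8, not past the threshold), with a difference of -0.65 (SE 0.11, adjusted p = 0.00232). Slc6a20a, a carrier of proline and other imino acids, had the same shape: 0.18, 0.40 and 0.85 in AcB55 and -0.20, 0.05 and 0.16 in AcB61, again with no overlap. Its means were 0.47 ± 0.28 (limma adjusted p = 3.11e-04) and -0.01 ± 0.14 (adjusted p = 0.93), and the difference was -0.49 (SE 0.11, adjusted p = 0.00752). These are the 2 carriers whose strain ranges did not overlap, beside 2.67% of all features. The cDNA spot may also bind the near-identical Slc6a20b.

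Slc3a2, the heavy chain that carries Slc7 light chains to the cell surface, was at 0.33 ± 0.26 in AcB55 (limma adjusted p = 0.00591) and at 0.19 ± 0.16 in AcB61 (adjusted p = 0.0579). Its AcB61 value passed the threshold when AcB61 replicate 4 (adjusted p = 0.0385) or AcB55 replicate 1 or 3 (0.0475 and 0.0455) was left out. The other Slc7 light chains measured, Slc7a2, Slc7a7 and Slc7a8, lay between -0.08 and 0.11 and did not pass. Slc66a2, placed in this class by its family number alone, was higher in both strains, at 0.28 ± 0.21 (adjusted p = 0.0296) and 0.32 ± 0.26 (adjusted p = 0.006). The AcB55 call of Slc66a2 was lost without replicate 1, 2, 4 or 5 (adjusted p of 0.0619 to 0.112). The neutral amino acid exchanger Slc1a5 was at 0.17 and 0.19 and did not pass (adjusted p of 0.165 and 0.0648). Its AcB61 value passed without AcB61 replicate 4 (0.0394), without AcB55 replicate 2 (0.0328) or without AcB55 replicates 1 and 2 (0.0185). It also passed in the strain-only fit (0.0411) and with the block by title number (0.0249). The glutamate and aspartate carrier Slc1a3 was lower in AcB55, at -0.16 ± 0.07 (adjusted p = 0.0254), a call lost without replicate 1, 4 or 6 (0.0596 to 0.0922).

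The sugar class held the carrier with the largest fall on the direction taken here. Slc50a1 is the single mammalian relative of the plant SWEET sugar transporters. Its lowest, median and highest array were -1.01, -0.89 and -0.60 in AcB55 and -0.85, -0.38 and -0.06 in AcB61. All 14 arrays lay below 0, and the strains overlapped. The means were -0.87 ± 0.16 (SD, n = 6) and -0.43 ± 0.25 (SD, n = 8), which is 1.82-fold and 1.35-fold below A/J, with limma adjusted p of 1.01e-06 and 2.58e-04. The fall was smaller in AcB61 by 0.43 (SE 0.11, adjusted p = 0.0158). Krtcap2, a neighbouring gene on chromosome 3, read -0.59 in AcB55 (adjusted p = 6e-05) and -0.09 in AcB61 (adjusted p = 0.4), with a difference of 0.49 (adjusted p = 0.00869). The other neighbours tested passed in no comparison: Efna1 at 0.00 and 0.06, Trim46 at 0.00 and 0.07, and Zbtb7b at 0.25 and -0.12.

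The insulin-regulated glucose transporter Slc2a4 rose in both strains. It read 0.26, 0.42 and 0.91 in AcB55 and 0.03, 0.16 and 0.81 in AcB61 (lowest, median and highest), so all arrays were above 0 and the strains overlapped. The means were 0.47 ± 0.24 (limma adjusted p = 0.0012) and 0.25 ± 0.26 (adjusted p = 0.0289). The AcB61 call was lost without replicate 3 (0.22, adjusted p = 0.0735) or replicate 7 (0.17, adjusted p = 0.0881). The remaining 5 carriers of the class lay between -0.09 and 0.16. The probes of Slc45a3 disagreed in AcB55, at -0.26 (adjusted p = 0.016) and 0.07, behind a mean of -0.09. Slc45a4 came closest to the threshold in AcB61 from outside, at 0.16 with an adjusted p of 0.0528, and passed without replicate 2 (0.0192) or replicate 6 (0.0334). The glucose transporters Slc2a1 and Slc2a3 were not analysed here.

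Of 13 metal and heme carriers, 2 were higher and 2 lower in AcB55 (15.4% each, beside 9.77% and 10.9% of all features) and 1 was higher and 1 lower in AcB61 (7.69% each, beside 10.5% and 13.3%). Shares this near the background say nothing of the class. Slc48a1 moves heme out of the lysosome and phagolysosome. It read 0.15, 0.44 and 0.84 in AcB55 and 0.09, 0.55 and 1.05 in AcB61 (lowest, median and highest), above 0 on all arrays. The means were 0.45 ± 0.28 (SD, n = 6, limma adjusted p = 0.00816) and 0.56 ± 0.36 (SD, n = 8, adjusted p = 6.40e-04). Without AcB55 replicates 1 and 2, the arrays highest in granulocyte, red cell precursor and cycling cell genes, its AcB55 mean was 0.35 with an adjusted p of 0.106. It is known from macrophages that engulf red cells; of 8 macrophage genes, 6 were lower in AcB55 and 3 in AcB61, and 1, the lysosomal protease Ctsb, was higher in both. Their part in its value was not tested.

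Slc30a9, a zinc carrier of the mitochondrion, was at 0.47 ± 0.23 in AcB55, with arrays from 0.09 to 0.76 (limma adjusted p = 7.32e-05). In AcB61 it was at 0.15 ± 0.09, with arrays from 0.03 to 0.28 (adjusted p = 0.0793, and 0.0357 without AcB55 replicate 2). The difference of -0.32 (adjusted p = 0.0271) no longer passed without AcB55 replicate 1, 4, 5 or 6 or AcB61 replicate 1 (0.0527 to 0.0695). The other zinc carriers that passed were lower. Slc30a4, which loads zinc into vesicles, was at -0.23 ± 0.16 in AcB55 (adjusted p = 0.0281, and 0.0507 to 0.116 without replicate 1, 2, 4 or 6). Slc30a7, which loads zinc into the Golgi, was at -0.19 ± 0.23 and -0.17 ± 0.05 (adjusted p of 0.0403 and 0.0313). Its AcB55 call was lost without AcB55 replicate 1, 3, 4, 5 or 6 or AcB61 replicate 1 or 4 (0.0519 to 0.15), and its AcB61 call without AcB61 replicate 1, 2, 4, 7 or 8 (0.0535 to 0.0698). Ferroportin, Slc40a1, the iron exporter of macrophages, was at -0.07 and -0.12 and did not pass (adjusted p of 0.673 and 0.278). The zinc and manganese importer Slc39a8 was at 0.16 and 0.03 and did not pass (adjusted p of 0.17 and 0.817), except in AcB55 without replicate 5 (0.0379). The iron carriers Slc11a1 and Slc11a2 were not analysed here.

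The class of mitochondrial carriers was taken as family Slc25, whatever the organelle of a single member. Of its 13 members, 2 were higher and 3 lower in AcB55 (15.4% and 23.1%, beside 9.77% and 10.9% of all features). In AcB61, 2 were higher and 1 lower (15.4% and 7.69%, beside 10.5% and 13.3%). Slc25a39 imports glutathione into the mitochondrion and has a known part in heme synthesis. Its lowest, median and highest array were -0.07, 0.27 and 0.95 in AcB55 and 0.53, 0.80 and 1.21 in AcB61. All AcB61 arrays and 5 of 6 AcB55 arrays were above 0, and the strains overlapped through AcB55 replicates 1 and 2. The means were 0.40 ± 0.39 (SD, n = 6, limma adjusted p = 0.0114) and 0.79 ± 0.20 (SD, n = 8, 1.73-fold, adjusted p = 1.15e-05). The AcB55 call rested on those arrays: the mean was 0.29 without replicate 1 (adjusted p = 0.0582), 0.32 without replicate 2 (adjusted p = 0.0546) and 0.16 without both (adjusted p = 0.274). The difference between the strains was 0.40 with an adjusted p of 0.0738, and it passed at 0.51 without AcB55 replicate 1 (0.0181) and at 0.48 without replicate 2 (0.0343). The left-out iron importer Slc25a37 read 0.29 and 0.51, both past the threshold.

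Slc25a11, which exchanges oxoglutarate for malate, was lower in both strains. It read -0.48, -0.42 and -0.25 in AcB55 and -0.29, -0.25 and -0.02 in AcB61 (lowest, median and highest), below 0 on all 14 arrays. The means were -0.41 ± 0.08 (SD, n = 6, limma adjusted p = 1.44e-05) and -0.20 ± 0.10 (SD, n = 8, adjusted p = 0.00258). The difference of 0.21 (adjusted p = 0.0451) was just inside the threshold and was lost without AcB55 replicate 1, 3, 4, 5 or 6 or AcB61 replicate 1, 2, 3, 4, 5 or 6 (0.0531 to 0.0937).

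The adenine nucleotide carrier Slc25a5 was at 0.20 ± 0.14 and 0.22 ± 0.18 (limma adjusted p of 0.0485 and 0.0115), and its spot may also bind the near-identical Slc25a4. Its AcB55 call was lost without any single AcB55 replicate, or without AcB61 replicate 1, 2, 4, 5 or 7 (0.0517 to 0.182). Slc25a32, a carrier of folate and flavin, was at -0.26 ± 0.17 in AcB55 (adjusted p = 0.0143, and 0.0697 without replicate 1) and at 0.01 in AcB61. Its difference of 0.28 did not pass (adjusted p = 0.0689), but did without AcB55 replicate 3 (0.0497) or AcB61 replicate 3 (0.0421). The pyrimidine nucleotide carrier Slc25a33 was at -0.21 ± 0.13 in AcB55, just inside the threshold (adjusted p = 0.0488), and at 0.04 in AcB61. That call was lost without AcB55 replicate 2, 3, 4, 5 or 6 or AcB61 replicate 1, 2, 4 or 7 (0.0509 to 0.15), and its difference of 0.24 (adjusted p = 0.104) passed without AcB61 replicate 8 (0.0472). The aspartate and glutamate carrier Slc25a13 was just outside it in AcB55, at 0.14 (adjusted p = 0.0684, and 0.0419 without replicate 6), and at 0.00 in AcB61.

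Among nucleoside carriers, Slc29a1, the equilibrative nucleoside transporter of the red cell membrane, rose in both strains. Its lowest, median and highest array were 0.19, 0.59 and 1.02 in AcB55 and 0.23, 0.46 and 0.65 in AcB61. All 14 arrays were above 0 and the AcB61 range lay within the AcB55 range. The means were 0.58 ± 0.32 (SD, n = 6, 1.49-fold) and 0.46 ± 0.15 (SD, n = 8, 1.37-fold), with limma adjusted p of 1.17e-04 and 3.16e-04. The difference was -0.12 (95% interval -0.36 to 0.12, adjusted p = 0.542). Its relatives Slc29a2 and Slc28a2 lay between -0.10 and 0.05. Of the 10 Slc35 genes, a family known for carrying nucleotide sugars into the Golgi and endoplasmic reticulum, 0 passed in AcB55 (limma) and only Slc35e1 passed in AcB61, at -0.18 ± 0.08 (adjusted p = 0.016). The shares over all features were 20.7% and 23.8%, and whether this family differs from them was not tested. The probes of Slc35e1 disagreed in AcB61, where one read -0.38 (adjusted p = 1.42e-04) and the other 0.02.

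Ion and phosphate carriers showed small changes. Of 9 carriers of bicarbonate, protons, sodium, calcium, potassium or chloride, Slc4a3, an anion exchanger, was at 0.34 ± 0.19 in AcB55 (limma adjusted p = 0.0046) and 0.08 in AcB61 (adjusted p = 0.491). Its AcB55 call was lost without AcB55 replicates 1 and 2 (0.30, adjusted p = 0.0532). The difference between the strains, -0.27, did not pass (adjusted p = 0.111). It was -0.42 without AcB61 replicates 2, 6 and 8, a set picked from these data. The left-out anion exchangers of that family read 1.28 and 1.07 (Slc4a1) and 1.22 and 0.31 (Slc4a2). The sodium and calcium exchanger Slc8a1 was at -0.22 ± 0.09 in AcB55, below 0 on all 6 arrays (adjusted p = 0.00428), and at 0.06 ± 0.10 in AcB61, above 0 on 7 of 8 arrays (adjusted p = 0.423). Its difference of 0.27 passed (SE 0.07, adjusted p = 0.0142). The potassium and chloride carrier Slc12a7 had a mean of -0.09 in AcB55, but its probes read 0.13 and -0.32, the latter with an adjusted p of 0.00117.

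The sodium-dependent phosphate importer Slc20a1 was the carrier past the threshold in opposite directions. It read -0.05, 0.13 and 0.41 in AcB55 and -0.30, -0.18 and -0.02 in AcB61 (lowest, median and highest). It was above 0 on 5 of 6 AcB55 arrays and below 0 on all 8 AcB61 arrays. The means were 0.18 ± 0.18 (limma adjusted p = 0.044) and -0.16 ± 0.10 (adjusted p = 0.0294), with a difference of -0.34 (SE 0.08, adjusted p = 0.0113). Both strain calls were weak: that of AcB55 was lost without AcB55 replicate 1, 2, 4 or 5 or AcB61 replicate 1, 2, 5 or 8 (0.0508 to 0.167), and that of AcB61 without replicate 2, 5, 6, 7 or 8 (0.0515 to 0.0776). The difference passed without each of the 14 arrays. The vesicular nucleotide carrier Slc17a9 was at -0.15 ± 0.11 in AcB55 (adjusted p = 0.0451) and 0.03 in AcB61, a call lost without AcB55 replicate 1, 3, 4, 5 or 6 or AcB61 replicate 1, 2, 4, 5 or 8 (0.0519 to 0.142). Its difference of 0.18 (adjusted p = 0.0939) passed without AcB55 replicate 2 (0.0483) or AcB61 replicate 7 (0.047).

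The remaining 14 carriers, for carboxylates and organic ions (7), for vitamins and choline (5) and for urea and other substrates (2), had 0 members past the threshold in either strain (limma). Over all features 20.7% passed in AcB55 and 23.8% in AcB61, and whether these classes differ from that was not tested. The means of the 14 carriers ran from -0.13 to 0.10 in AcB55 and from -0.09 to 0.15 in AcB61. Slc46a1, which carries folate and heme, was at -0.13 and 0.00 (adjusted p of 0.137 and 0.984). The urea transporter Slc14a1, known from the red cell membrane, was at 0.10 ± 0.16 and -0.04 ± 0.42 (adjusted p of 0.641 and 0.86), with AcB61 arrays from -0.62 to 0.51. The lactate exporter Slc16a3 was at 0.06 and 0.02.

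**Figure D2:**
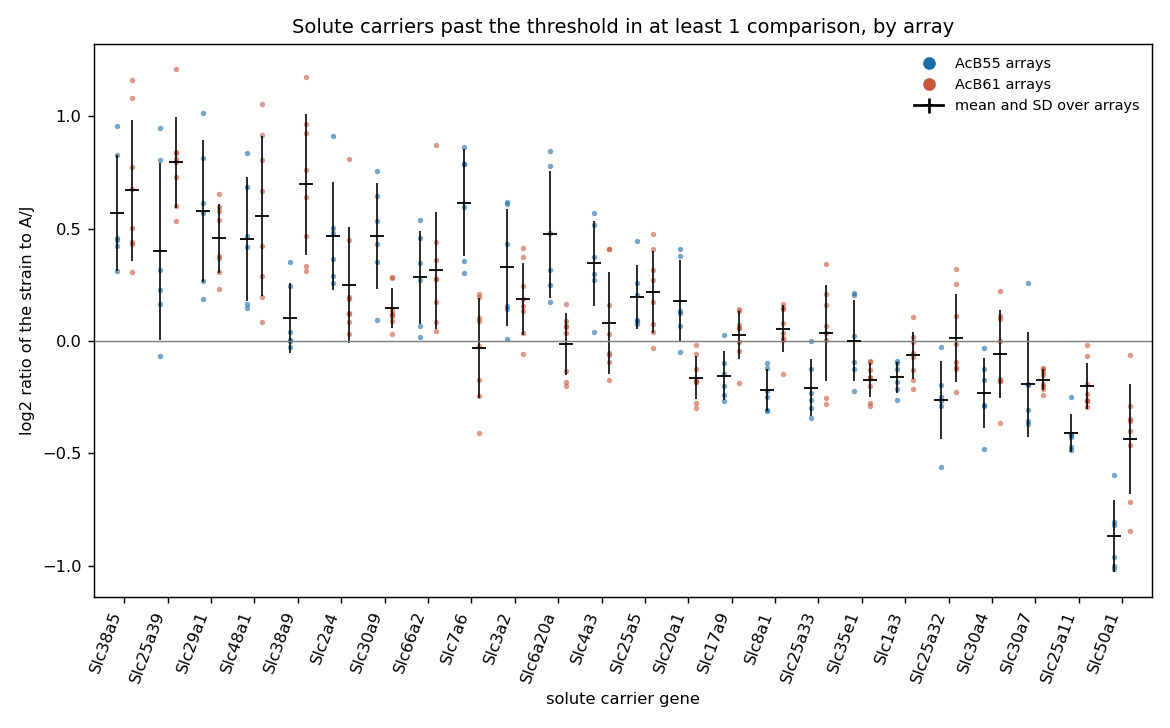
Log2 ratio to A/J on each array (points, AcB55 blue and AcB61 red) of the 24 carriers past the threshold in at least 1 comparison, with the mean and SD over arrays as a cross and bar. Slc38a5, Slc29a1, Slc48a1, Slc2a4, Slc30a9 and Slc66a2 are above 0 on all 14 arrays, and Slc50a1 and Slc25a11 are below 0 on all 14. Slc7a6 and Slc6a20a are separated between the strains.

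Between the strains, 4 carriers were higher in AcB61 than in AcB55 and 4 were lower, which is 4.49% each way, beside 5.29% and 6.98% of all features and 6.79% and 3.63% of single-symbol genes. Counting both directions the carriers' share was 8.99%, below 12.3% of features and 10.4% of genes. Slc38a9, Slc50a1, Slc8a1 and Slc25a11 were higher in AcB61, by 0.60, 0.43, 0.27 and 0.21. Slc7a6, Slc6a20a, Slc20a1 and Slc30a9 were lower, by -0.65, -0.49, -0.34 and -0.32. For Slc50a1 and Slc25a11 the positive difference is a smaller fall against A/J. In 6 of these 8 the difference passed under every setting tried, the exceptions being Slc30a9 and Slc25a11. Of 31 tested genes that neighbour them, 3 differed between the strains (9.68%, below the 12.3% of all features) and 28 did not pass. Krtcap2 (above) differed beside Slc50a1, Cdh3 near Slc7a6 by 0.25 (adjusted p = 0.0475) and Eml4 near Slc8a1 by 0.35 (adjusted p = 0.0316).

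**Figure D3:**
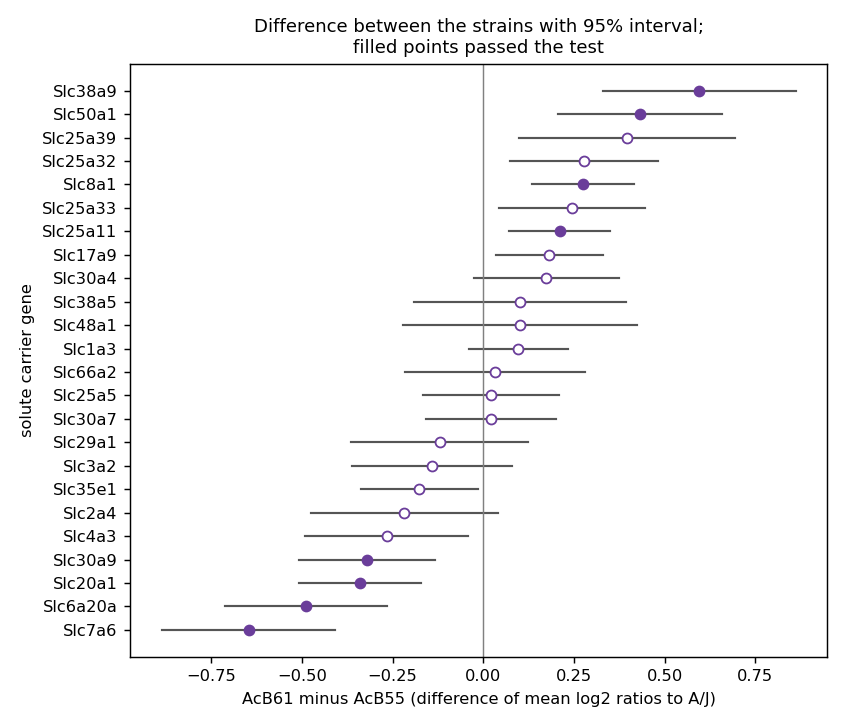
Difference of the mean log2 ratios, AcB61 minus AcB55 (x axis), with its 95% interval for the 24 carriers past the threshold in at least 1 comparison (y axis), where filled points passed an adjusted p of 0.05. Slc38a9 lies furthest to the right at 0.60 and Slc7a6 furthest to the left at -0.65.

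Within AcB61 several carriers followed the sets of arrays that correlated with each other. Slc48a1 read 1.05, 0.80 and 0.92 on replicates 2, 6 and 8, and 0.09, 0.20 and 0.29 on replicates 3, 5 and 7, with replicates 1 and 4 between them. Slc38a5 read 1.16, 0.77 and 1.08 on the former and 0.31, 0.43 and 0.50 on the latter. Ferroportin went the same way around 0, at 0.20, 0.08 and 0.08 against -0.25, -0.35 and -0.48. Its AcB61 mean was -0.12 over all arrays, which did not pass, and -0.27 without replicates 2, 6 and 8, where it was higher. The sets were picked from the correlations of these same arrays. A lower mean without the higher arrays is therefore a description and not a test. Slc14a1 went the other way, at -0.62, -0.57 and -0.01 against 0.42, 0.51 and 0.17. Its AcB61 mean was -0.04 over all arrays and, by the same kind of choice, -0.28 without replicates 3, 5 and 7. The mitochondrial phosphate carrier Slc25a3, named after its values were seen, was at 0.64 and 0.49 on replicates 2 and 6 and at -0.42, -0.15 and -0.21 on replicates 3, 5 and 7, and had no value on replicate 8. Slc38a5, Slc48a1, Slc38a9, Slc25a39, Slc29a1, Slc66a2, Slc50a1 and Slc25a11 passed in AcB61 without either set. Of the other AcB61 calls, Slc2a4 and Slc25a5 were lost without replicates 3, 5 and 7 (adjusted p of 0.261 and 0.109), Slc35e1 without replicates 2, 6 and 8 (0.164), and Slc30a7 and Slc20a1 without either set (0.0791 to 0.168). Several marker lists moved with the sets too, while others did not. The granulocyte mean was 0.75, 0.73 and 0.61 on replicates 2, 6 and 8 and 0.49, 0.27 and 0.30 on replicates 3, 5 and 7, and the red cell precursor mean was 0.58, 0.57 and 0.50 against 0.77, 0.69 and 0.71. The macrophage mean was -0.22, -0.24 and -0.34 against -0.14, -0.09 and -0.09, and the platelet mean was -0.28, -0.33 and -0.29 against -0.64, -0.50 and -0.66. The cycling cell mean overlapped between the sets, at 0.63, 0.58 and 0.66 against 0.76, 0.51 and 0.73. So did the mean of stroma, vessels and fat, at -0.25, -0.26 and -0.36 against -0.31, -0.06 and -0.29. The part of these markers in the carriers' values was not tested. What separates the sets is not given in the labels and was not tested.

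**Figure D4:**
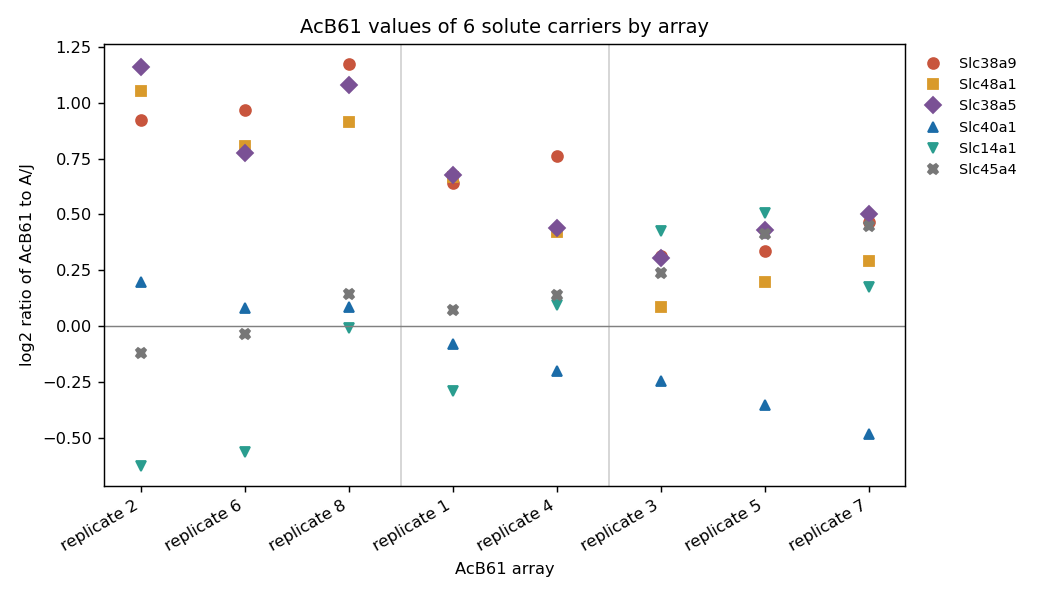
Log2 ratio of AcB61 to A/J (y axis) of 6 carriers on each of the 8 AcB61 arrays (x axis), with vertical lines around replicates 1 and 4. Slc38a9, Slc48a1, Slc38a5 and Slc40a1 are higher on replicates 2, 6 and 8 than on replicates 3, 5 and 7, and Slc14a1 and Slc45a4 are lower there.

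Other transporters and the known partners of carriers were counted in the same fit. Of 30 tested genes from a list of 57, 9 were higher and 4 lower in AcB55 and 9 were higher and 5 lower in AcB61, with medians of 0.02 and 0.04. Over all features 9.77% were higher and 10.9% lower in AcB55, and 10.5% and 13.3% in AcB61. Between the strains 1 was higher and 3 were lower in AcB61, beside 5.29% and 6.98% of all features. The list was chosen with earlier results of these data known, so its counts are descriptions. Basigin (Bsg) and embigin (Emb), the chaperones of the monocarboxylate carriers, were at 0.46 ± 0.13 and 0.41 ± 0.11 in AcB55 (limma adjusted p of 1.61e-04 and 0.00278). In AcB61 Bsg was at 0.72 ± 0.21 and Emb at 0.42 ± 0.31 (adjusted p of 7.13e-07 and 8.45e-04). Their client Slc16a1 was not analysed here. Txnip, which drives glucose transporters off the cell surface, was at -0.24 and -0.45 (adjusted p of 0.0124 and 2.58e-05). The mitochondrial ABC transporters Abcb10, which acts in heme synthesis, and Abcb6, a porphyrin carrier, were at 0.85 and 0.30 in AcB55 and at 0.70 and 0.54 in AcB61. The sodium pump subunits tested went both ways. Atp1b3 was at -0.40 in AcB55 (adjusted p = 1.38e-04) and -0.12 in AcB61 (adjusted p = 0.104). Atp1b1 was at -0.29 and -0.22 (adjusted p of 0.0293 and 0.0446), and Atp1b2 was at 0.36 and 0.22 (adjusted p of 0.00198 and 0.0189).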

How the data were processed

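Spleen RNA of AcB55 or AcB61 mice was hybridised with A/J spleen RNA on 14 cDNA arrays of 2 channels. Per the labels' protocols, RNA was extracted with TRIzol, labelled with Cy3 or Cy5, scanned with a ScanArray instrument, quantified with QuantArray and imported into GeneSpring. The label text ends at the words on dye swap and intensity, and the sources used here do not give the normalization, the dyes or the log base. The deposited values are log ratios, read as log2; another base would scale every log2 value and change the folds but no sign or test. Spot intensities were not used here, so the precision of each spot is unknown and the number of arrays limits it.

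Probe names came from the platform annotation. The table lists 15247 features, 14612 had a value, and 7849 measured probes had 1 symbol. Probes of a gene were averaged (11 carriers have more than 1 probe, 78 have 1, and 84 have values on all arrays). A feature was tested with at least 3 values in each strain, which left 13045. In R 4.3.3, limma 3.58.1 (lmFit, eBayes) gave a mean per strain over all 14 arrays, tested two-sided against 0 and between strains, with Benjamini-Hochberg adjustment over all features and a threshold of 0.05. No A/J sample was hybridised against A/J, so the tests against 0 leave out the spread of A/J, and both strain comparisons share A/J. The fit was checked on simulated data. Figures used Python 3.11.15 and matplotlib 3.10.9.

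Named carriers were the largest changes past the threshold by comparison and by class, those next to the threshold, and a list of red cell, iron, heme and amino acid carriers. Carriers, classes and the lists (red cell precursors, cycling cells, macrophages, B cells, T and NK cells, granulocytes, platelets, exocrine pancreas, stroma, other transporters) were chosen with earlier results of these data known. Alternatives were centring, scaling, complete features, single probes, array weights, robust eBayes, a block by title number, strain-only fits and leaving out arrays. The sets of AcB61 arrays and AcB55 replicates 1 and 2 were left out as alternatives added after seeing the data.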

Additional observations from a re-analysis of the deposited data

Results flagged for a closer look

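In 3 of 62 groups of carrier and strain 1 array stood far from the others, and chance gives about 1 in 20. Slc25a11 read -0.25 on AcB55 replicate 2, where the other arrays lay between -0.483 and -0.415. Slc25a39 read 1.21 on AcB61 replicate 3, where the others lay between 0.534 and 0.842. Slc30a7 read 0.256 on AcB55 replicate 2, where the others lay between -0.369 and -0.19.

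The change against A/J differed between AcB61 and AcB55 by limma's test of the difference in 8 carriers. The difference was -0.647 for Slc7a6, -0.488 for Slc6a20a, -0.34 for Slc20a1 and -0.32 for Slc30a9. It was 0.596 for Slc38a9, 0.432 for Slc50a1, 0.274 for Slc8a1 and 0.211 for Slc25a11.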

How the results depend on the processing

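No carrier's call changed direction under any alternative. In AcB55, 10 of 22 calls passed under every setting tried (Slc7a6, Slc29a1, Slc38a5, Slc6a20a, Slc2a4, Slc30a9, Slc3a2, Slc50a1, Slc25a11 and Slc8a1). In AcB61, 8 of 13 did (Slc29a1, Slc38a5, Slc48a1, Slc25a39, Slc50a1, Slc25a11, Slc38a9 and Slc66a2), and between the strains 6 of 8. The 13 carriers higher in AcB55 became 7 without AcB55 replicates 1 and 2, and the 9 lower became 5 without these and 4 without the 2 AcB55 arrays marked b. The 8 higher in AcB61 became 13 without AcB61 replicates 2, 6 and 8. The 4 higher in AcB61 than in AcB55 became 8 with array weights (0.586 to 2.92) and 8 with the start of the title number as a random block (consensus correlation -0.141). The causes were not tested. Leaving out each array in turn gave 9 to 13 higher and 4 to 9 lower in AcB55, 7 to 10 higher and 3 to 5 lower in AcB61, and 3 to 6 higher and 3 to 4 lower between the strains, with 4 lower in AcB55 without its replicate 1, 4 or 6. No paired analysis was possible because the labels give no replicate numbers that AcB55 and AcB61 share.

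Without spot intensities, dim and bright spots cannot be told apart, and small ratios of dim spots are the least certain.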
